A study of Mus musculus with 2 samples.

Results

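Fos, Fosb, Jun, Junb, Jund, Egr1, Ier2, Atf3 and Nr4a1 are immediate early genes, which cells begin to transcribe within minutes of a stimulus and without new protein synthesis. They were followed in dissociated embryonic mouse forebrain as raw counts of unique molecular identifiers (UMIs, 1 per captured transcript) in progenitors, neurons and non-neural cells. The 9 genes were chosen by symbol, and each symbol matched 1 row of each matrix, so that they made up 9 of 28001 features in the septal library and 9 of 32286 in the vesicle library.

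Each library was 1 single-cell suspension of C57BL/6J tissue prepared with the same enzymatic kit and mechanical dissociator. The septal library pooled septal explants of 8 PGKCre;Rosa26YFP embryos at E11.5 and 4 Dbx1Cre;Rosa26tdTomato embryos at E12.5, from 2 litters each. The vesicle library held the telencephalic vesicles of 3 wild-type embryos from 2 litters, labelled E12 and given as E11.5 to E12 in the study's methods. GEO's labels give both samples as wild-type, and in the septal pool the Cre alleles only switch on a reporter, PGKCre in most cells and Dbx1Cre in the cells that descend from Dbx1-expressing progenitors. Neither library came with undissociated tissue, so the effect of dissociation itself was not measured. With 1 library per tissue there is no replicate and no test, cells are not replicates, and every interval given here is a 95% interval that covers counting error only. The libraries were made with different kit versions and counted with different software versions, so levels were compared between cell classes within a library and never between libraries.

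Fos, Fosb, Jun, Junb, Jund and Atf3 encode subunits of AP-1-type transcription factors, in which FOS proteins pair with JUN proteins to bind DNA, while JUND is known for a high basal level and ATF3 for its induction by stress. Egr1 encodes a zinc finger transcription factor, Nr4a1 an orphan nuclear receptor, and Ier2 a small nuclear protein. In brain, transcription of several of these genes follows electrical activity, growth factor signalling through ERK and serum response factor, and calcium signalling through CREB, and their mRNAs decay quickly. Enzymatic and mechanical dissociation is a known inducer of the same genes, in brain macrophages among other cells.

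The reference promoters are shown first because several members share a short element in them. RefSeq promoters on GRCm38.p6 were matched for 7 of the 9 members, and Ier2 and Egr1 were not among the entries matched. The core of the CREB and ATF element, TGACG on either strand, lay within the 250 bases before the annotated start of 5 of the 7, against 17.8% of 32851 promoters. Nr4a1 held 4 copies, at 233, 213, 69 and 40 bases upstream, and Fos held 2, at 129 and 66 bases upstream, while 3.90% of all promoters held 2 or more. The whole palindrome TGACGTCA (1.55% of promoters), the AP-1 site TGANTCA (6.75%) and the serum response element known as the CArG box (1.47%) had no match in these windows. The Egr1 site GCGNGGGCG, present in 4.70% of promoters, occurred in those of Fosb and Nr4a1. Both strands were searched for every motif, and the shorter CREB core lies within the palindrome. A TATAAA, found in 12.4% of promoters, stood 33 bases upstream in Fos. These matches describe letters and not occupied sites. Bases further upstream were not searched. The RefSeq starts differed from the GENCODE spans given below for some members. The Jund window ended at chr8:70697738, before the GENCODE start at 70698949, and the Atf3 and Nr4a1 windows lay inside their GENCODE spans. The lack of a match in Jund thus holds for that RefSeq start only. The last 150 bases before the start are printed for the 5 members with the CREB core, 5′ to 3′ on the gene's strand, with TGACG, its complement CGTCA and TATAAA in capitals. They come from chr12:85473740-85473889 (plus strand) for Fos, chr7:19310046-19310195 (minus) for Fosb, chr8:84978749-84978898 (minus) for Junb, chr1:191183334-191183483 (minus) for Atf3 and chr15:101266696-101266845 (plus) for Nr4a1.
Fos: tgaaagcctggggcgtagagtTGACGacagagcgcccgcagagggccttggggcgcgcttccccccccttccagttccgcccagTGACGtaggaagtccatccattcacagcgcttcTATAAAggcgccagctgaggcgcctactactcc
Fosb: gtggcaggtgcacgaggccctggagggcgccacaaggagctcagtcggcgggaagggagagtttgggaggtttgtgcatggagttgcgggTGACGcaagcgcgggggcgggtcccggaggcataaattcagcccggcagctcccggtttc
Junb: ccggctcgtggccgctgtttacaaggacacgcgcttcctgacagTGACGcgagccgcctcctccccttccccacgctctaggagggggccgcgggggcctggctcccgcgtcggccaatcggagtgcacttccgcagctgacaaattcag
Atf3: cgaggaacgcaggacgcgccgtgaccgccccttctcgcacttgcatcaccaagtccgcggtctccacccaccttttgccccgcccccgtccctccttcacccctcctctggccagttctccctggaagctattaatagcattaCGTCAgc
Nr4a1: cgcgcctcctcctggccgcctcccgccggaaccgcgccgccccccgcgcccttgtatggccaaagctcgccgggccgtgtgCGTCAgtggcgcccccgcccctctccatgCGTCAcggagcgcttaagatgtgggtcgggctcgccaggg

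In the GENCODE vM21 annotation of the same build, Fos (ENSMUSG00000021250) spans chr12:85473890-85477273 on the plus strand, Fosb (ENSMUSG00000003545) chr7:19302696-19310051 on the minus strand, Jun (ENSMUSG00000052684) chr4:95049034-95052222 on the minus strand and Junb (ENSMUSG00000052837) chr8:84974484-84978718 on the minus strand. Jund (ENSMUSG00000071076) spans chr8:70698949-70700616 on the plus strand, Ier2 (ENSMUSG00000053560) chr8:84661331-84662852 on the minus strand, Atf3 (ENSMUSG00000026628) chr1:191170296-191218039 on the minus strand and Nr4a1 (ENSMUSG00000023034) chr15:101254269-101274795 on the plus strand. Jun, Junb, Jund and Ier2 have no intron, a trait of 7.18% of 21901 coding genes. The pentamer ATTTA, the core of AU-rich elements that mark unstable mRNAs, occurred 5.52 times per kb of 3′ untranslated sequence in Nr4a1, 4.91 in Fos and 4.12 in Junb, but 0.466 in Fosb and 0 in Ier2. The median over the members was 2.53 per kb, against 1.31 over 19125 genes. Jun, Junb, Jund and Atf3 each overlap a gene on the opposite strand (Junos, Prdx2, Gm11175 and Gm24748), whose reads a strand-specific 3′ library keeps apart.

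After filtering, 5196 septal cells with a median of 12745 UMIs and 11171 vesicle cells with a median of 8859 UMIs remained. Apical progenitors (APs, the dividing cells of the ventricular zone) and basal progenitors (BPs, their committed daughters) were summed as progenitors, 3813 septal and 6793 vesicle cells, beside 1017 and 1613 neurons. Non-neural cells numbered 63 and 947, and 312 vesicle cells were choroid plexus-like. Class names stand for likeness to marker genes. The names were given from these marker lists, so that marker sums describe the classes and are no check of the names. Levels are given as CPM, a class's UMIs scaled to a total of 1000000. The summed level of 11 shared neuronal markers was 15558 CPM in septal neurons and 1336 CPM in septal progenitors, and 11407 and 968 CPM in the vesicle. The macrophage list was at 729 and 465 CPM in the non-neural cells and at or below 2.5 CPM in progenitors and neurons of either library. The 5 clusters without a clear name, 303 and 1506 cells, entered no class. The libraries shared 1 cell barcode.

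All 9 genes were detected in both libraries, over a wide range of levels. In the septal library the members held 54842 UMIs, or 747 CPM of all kept cells, of which Jund (335 CPM), Ier2 (193 CPM) and Jun (129 CPM) made up most. Fos stood at 48.5 CPM, Egr1 at 18.6 CPM and Junb at 13.9 CPM, while Atf3 (4.06 CPM), Fosb (3.77 CPM) and Nr4a1 (1.88 CPM) were rare. The vesicle library held 93733 member UMIs, 590 CPM, with Jund at 300.1 CPM, Jun at 146 CPM, Ier2 at 89.7 CPM, Fos at 18.4 CPM, Egr1 at 16.8 CPM, Junb at 10.1 CPM, Nr4a1 at 3.40 CPM, Fosb at 2.98 CPM and Atf3 at 2.33 CPM. These 3′ tag counts carry no length term. The share of cells with at least 1 UMI ran from 93.6% for Jund to 1.91% for Nr4a1 in the septal library and from 83.6% for Jund to 2.62% for Atf3 in the vesicle.

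**Figure D1:**
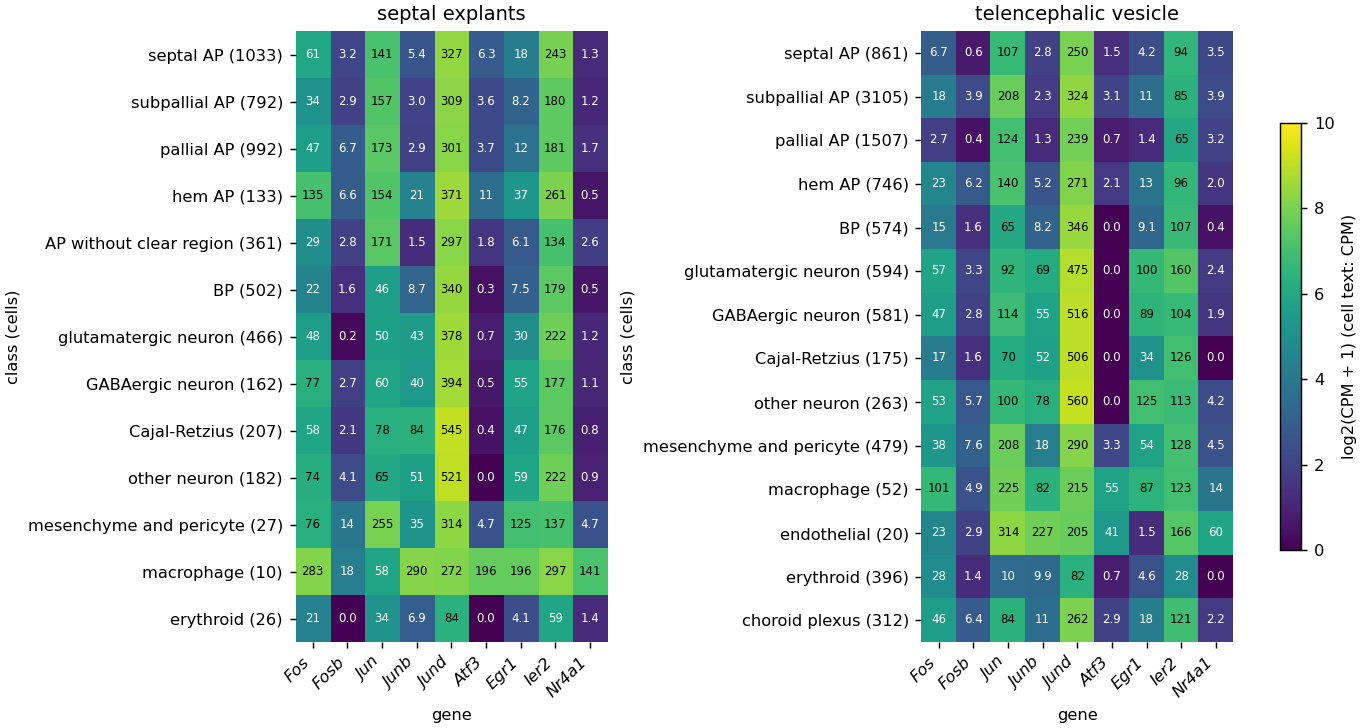
Levels of the 9 genes (columns) in each cell class (rows, with the number of cells) of the septal library and of the vesicle library, as log2(CPM + 1) in colour with the CPM of the summed UMIs printed in each cell. Jund, Jun and Ier2 were high in most classes, whereas Junb, Atf3 and Nr4a1 were highest in small non-neural classes, such as the 10 septal macrophage-like cells with Junb at 290.2 CPM, and Egr1 was highest there in the septal library and in neurons in the vesicle.

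The first comparison asked whether neurons and progenitors of one suspension, handled alike, held the same levels. They did not, and the direction depended on the gene. Junb and Egr1 were higher in neurons of both libraries, Jun was lower, Atf3 was nearly absent from neurons, and Fos was close to even in the septal library and higher in neurons of the vesicle. A ratio was called when it was at least 2-fold with an interval that excluded 1, among genes with at least 50 UMIs in the classes compared. In the septal library 2 members were called higher and 3 lower in neurons (2 lower without 2 clusters described below), where 17.2% of 12797 genes were called higher and 16.3% lower. In the vesicle 3 were called higher and 1 lower, where 17.0% of 15786 genes were called higher and 19.4% lower. The median ratio was 1.04 and 0.937 over all genes and 1.06 and 1.54 over the members. Calls in either direction were thus common among all genes, and counts over 9 members cannot be set apart from these shares.

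Fos stood at 58.8 CPM in septal neurons and 46.6 CPM in progenitors, a ratio of 1.26 (1.16–1.37). In the vesicle it stood at 48.8 and 12.7 CPM, a ratio of 3.84 (3.49–4.23). The vesicle ratio was past the 2-fold limit and the septal one was not. The septal direction depended on the reporter class described below, with 1.74 times in cells with YFP and 0.873 times in cells without. After each cell was thinned to 8000 UMIs in the septal library and 3500 in the vesicle, which left out 492 and 1110 shallower cells, Fos was found in 23.3% of septal progenitors and 29.7% of neurons, and in 4.67% and 15.1% in the vesicle. Erythroid-like cells gave 23.1% (26 cells, median 29046 UMIs before thinning) and 7.65% (353 cells, median 5397 UMIs before thinning). The share of septal progenitors with Fos was thus at the erythroid level, and that of vesicle progenitors below it. The CPM did not follow the shares, since septal progenitors (46.6 CPM) exceeded septal erythroid-like cells (20.6 CPM), and vesicle pallial-like APs, at 2.72 CPM, lay below vesicle erythroid-like cells, at 27.9 CPM. These cells therefore give no common background level for Fos, and no reading was drawn from the shares of progenitors with it.

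Fosb, a close relative of Fos, was lower in septal neurons (1.63 against 4.14 CPM, 0.394, 0.236–0.622), a call that was lost without 2 clusters (0.672 times), and showed 3.30 against 2.68 CPM in the vesicle (1.23, 0.862–1.71), an interval that includes 1. Jun was lower in neurons in both libraries, at 59.7 against 148 CPM (0.403, 0.374–0.435) and 98.6 against 155 CPM (0.638, 0.601–0.676), the latter short of 2-fold. The thinned share of cells with Jun fell from 58.4% of septal progenitors to 27.4% of neurons and from 39.6% to 24.7% in the vesicle, against 15.4% and 3.68% of erythroid-like cells.

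Junb gave the widest difference between neurons and progenitors. It stood at 52.2 against 4.65 CPM in the septal library, a ratio of 11.2 (9.73–13.0), and at 63.9 against 2.76 CPM in the vesicle, a ratio of 23.2 (20.4–26.4). Its thinned share rose from 3.87% of progenitors to 28.7% of neurons in the septal library and from 1.23% to 19.5% in the vesicle, with 0% and 3.68% of erythroid-like cells. Jund, by contrast, was high in both classes, with 439 against 316 CPM (1.39, 1.35–1.43) and 507 against 284 CPM (1.79, 1.74–1.83).

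Atf3 was almost confined to progenitors and non-neural cells. It had 6 UMIs in 1017 septal neurons, 0.489 CPM, against 4.09 CPM in progenitors, a ratio of 0.120 (0.0435–0.264). In the vesicle it had 244 UMIs in progenitors (1.96 CPM) and none in neurons. The neurons were therefore at least 7.90-fold lower, counting 3 UMIs as the floor over the class, and 0 of 1613 neurons allows a share of cells with a UMI of up to 0.186% by the same floor and 0.228% as the exact upper limit.

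Egr1 followed Junb. It stood at 42.1 CPM in septal neurons and 12.6 CPM in progenitors (3.34, 2.98–3.75), and at 93.0 and 7.65 CPM in the vesicle (12.2, 11.1–13.3). Its thinned share was 22.6% of septal neurons, 8.69% of progenitors and 3.85% of erythroid-like cells, and 23.3%, 3.42% and 1.13% in the vesicle. Ier2 differed little, at 206 against 195 CPM (1.06, 1.01–1.11) and 129 against 83.7 CPM (1.54, 1.46–1.63). Nr4a1 was rare in both classes, at 1.06 against 1.41 CPM (0.749, 0.382–1.35) and 2.23 against 3.23 CPM (0.690, 0.449–1.02), so that no difference was detectable at this depth. The summed members stood at 861 against 732 CPM in the septal library (1.18, 1.15–1.2) and 946 against 553 CPM in the vesicle (1.71, 1.68–1.74), a sum that Jund dominates.

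**Figure D2:**
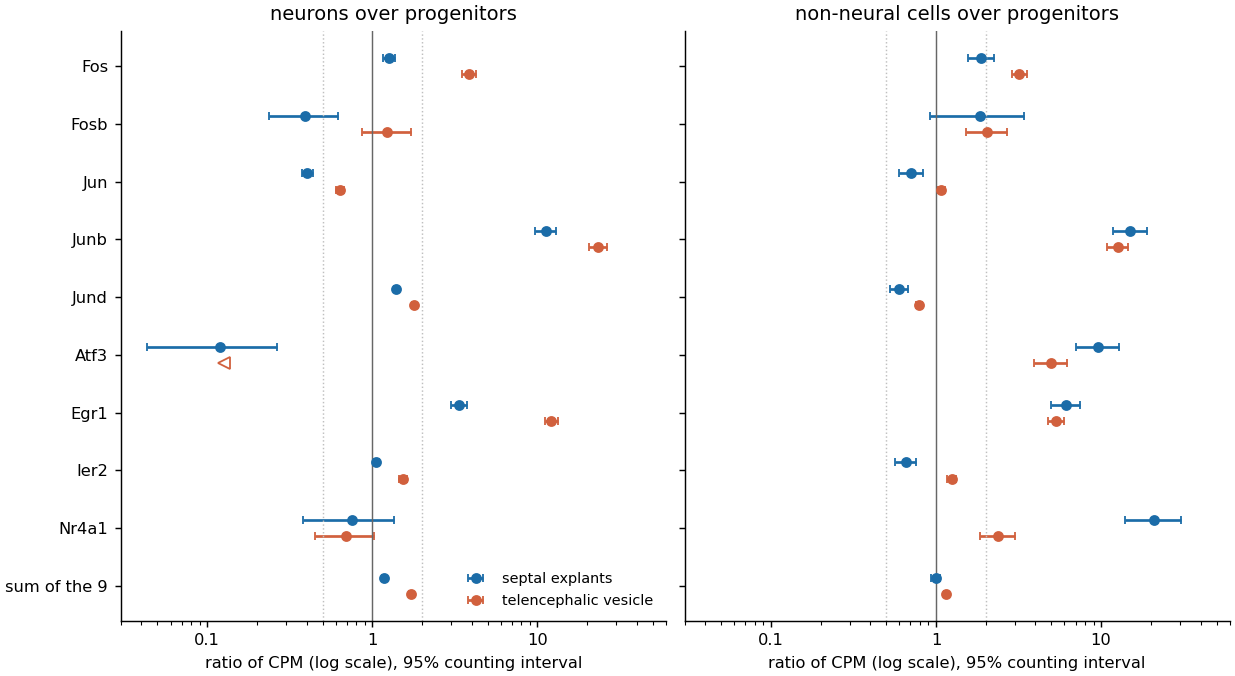
Ratio of CPM on a log axis with its 95% counting interval for each of the 9 genes, neurons over progenitors on the left and non-neural cells over progenitors on the right, in the septal library (blue) and the vesicle (orange), with dotted lines at 2-fold and an open triangle for Atf3 in the vesicle, which had no UMI in neurons. Junb and Egr1 lie to the right of the 2-fold line in all 4 comparisons, and Atf3 lies to the left for neurons and to the right for non-neural cells, where 1 cell held most of the septal Atf3 UMIs.

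Summed as 1 class, non-neural cells held more Junb, Egr1 and Nr4a1 than progenitors in both libraries, with or without the cell richest in each gene. Atf3 was higher too, but in the septal library that rested on 1 cell. In the septal library these 4 members were called higher and none lower, where 6.96% of genes were called higher and 22.7% lower. In the vesicle 6 were called higher and none lower, against 12.2% and 16.8%, since Fos and Fosb joined them. Fosb there went from 2.04 to 1.44 times (1.02–1.98) without 1 cell that held 18 of its 61 UMIs, and to 0.614 times when cells were thinned. Junb reached 70.0 CPM in septal non-neural cells (15.1, 11.8–19.0) and 34.8 CPM in vesicle ones (12.6, 10.9–14.6). Egr1 reached 77.0 CPM (6.11, 4.95–7.47) and 41.0 CPM (5.36, 4.78–6.00). Atf3 reached 39.2 CPM (9.59, 7.03–12.9) and 9.69 CPM (4.96, 3.91–6.24), and Nr4a1 29.4 CPM (20.8, 14.0–30.5) and 7.63 CPM (2.36, 1.85–2.99). Among septal non-neural cells, 1 cell held 46 of the 56 Atf3 UMIs, and without it the ratio was 1.73 (0.818–3.24) and no longer called. The Nr4a1 ratio without its richest cell was 10.7 (6.30–17.5) in the septal library and 2.09 (1.61–2.68) in the vesicle. Nr4a1 UMIs lay in few cells, 7 of 63 septal and 54 of 947 vesicle ones. Of the 42 septal UMIs, 39 lay in 4 macrophage-like cells, and of the 85 vesicle UMIs, 41 lay in endothelial-like cells. In vesicle cells resembling mesenchyme and pericytes the ratio without the richest cell was 1.32 (0.864–1.93). The Nr4a1 difference thus belonged to small classes and not to non-neural cells at large. Fos stood at 87.5 CPM in septal non-neural cells (1.88, 1.56–2.25) and 40.6 CPM in vesicle ones (3.19, 2.87–3.54). Jund stood at 0.597 and 0.793 times the progenitor level, near the median ratio over all genes of 0.643 and 0.789. Jun stood at 0.705 times the progenitor level in septal non-neural cells and 1.07 times in vesicle ones, and Ier2 at 0.658 and 1.25 times. The septal values of Jun and Ier2 were thus near that median too. The class includes erythroid-like cells, where septal Jund was at 0.265 times the progenitors. It was at 0.994 times in septal cells resembling mesenchyme and pericytes and 0.862 times in macrophage-like ones. Jun in these 2 classes was at 1.72 and 0.393 times.

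The non-neural classes differed among themselves, and small classes carried much of the difference. The macrophage-like name stands for marker likeness only, and which immune or blood cells it covers was not resolved. Leading genes of the septal cells included Pf4, Ppbp and Gp9 beside C1qb and C1qc, and those of the vesicle cells S100a8 and S100a9 beside Mrc1. The 10 septal macrophage-like cells held Junb at 290.2 CPM (62.5, 48.0–80.5), Fos at 283 CPM (6.07, 4.78–7.61), Atf3 at 196 CPM (47.9, 35.0–64.7) and Nr4a1 at 141 CPM against 1.41 CPM in progenitors (interval of the ratio 66.4–148). Jun alone was called lower in them, at 58.0 CPM (0.393, 0.224–0.638). Called higher in these cells were 6 of 9 members, where 8.13% of genes were higher and 12.8% lower. Single cells weighed heavily in them. The richest cell held 46 of 54 Atf3 UMIs, and without it Atf3 stood at 30.5 CPM (7.47, 3.19–14.96). Nr4a1 without its richest cell stood at 78.0 CPM (55.1, 31.1–92.7), Fos at 208 CPM (4.46, 3.28–5.94) and Junb at 225 CPM (48.5, 35.3–65.5). Fosb had 5 UMIs in 2 cells, and without the richer one its interval included 1 (0.252–7.65). The 52 vesicle macrophage-like cells held Fos at 101 CPM (7.94, 6.44–9.69), Egr1 at 87.2 CPM (11.4, 9.06–14.2), Junb at 82.3 CPM (29.9, 23.2–38.0), Atf3 at 54.9 CPM (28.1, 20.6–37.6) and Nr4a1 at 13.7 CPM (4.25, 2.30–7.21). These 5 were called higher and none lower, against 11% and 16.5% of genes, and without its richest cell Atf3 stood at 33.9 CPM (17.3, 11.7–24.9). Ccl3 and Ccl4, chemokines that activated microglia release, stood at 326 and 243 CPM in the septal macrophage-like cells against 4 UMIs each in all septal progenitors. They reached the count limit only through the macrophage-like cells, and the other 4 listed cytokines (Cxcl2, Cxcl10, Il1b and Tnf) had 0 to 5 UMIs in those cells.

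Endothelial-like cells of the vesicle (20 cells) showed another pattern. Junb reached 227 CPM (82.3, 67.7–99.7), Nr4a1 59.6 CPM (18.5, 13.0–25.5), Atf3 40.7 CPM (20.8, 13.6–30.9) and Jun 314 CPM (2.03, 1.77–2.32), whereas Egr1 had a single UMI (1.45 CPM). The 4 were called higher, where 11.4% of genes were called higher and 14.8% lower. Without its richest cell Jun stood at 1.92 times (1.65–2.21) and was not called. Junb, Nr4a1 and Atf3 stayed called without theirs, at 73.9, 14.5 and 20.2 times. Cells that resembled mesenchyme and pericytes were led by Egr1, at 125 CPM in 27 septal cells (9.92 times the progenitors) and 53.6 CPM in 479 vesicle cells (7.0 times), with Junb at 7.62 and 6.59 times. Egr1, Junb and Fosb were called higher there in the septal library, where 10.4% of genes were called higher and 7.40% lower. Egr1, Junb, Fos and Fosb were called higher in the vesicle, against 11.3% and 12.3%. Fosb rested on few cells in both, and without its richest cell it stood at 2.41 times (0.650–6.24) in the septal library and 1.81 times (1.22–2.60) in the vesicle, neither called. Choroid plexus-like cells held Fos at 46.2 CPM (3.63 times), Junb at 11.1 CPM (4.03 times), Fosb at 6.44 CPM (2.40 times) and Egr1 at 17.8 CPM (2.32 times), where 9.51% of genes were higher and 7.02% lower.

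Erythroid-like cells, in which globin took 52.1% of UMIs in the septal library and 54.8% in the vesicle, held the fewest member UMIs. Their summed members were at 0.287 and 0.297 times the progenitors, where 49.2% and 65.9% of genes were called lower and 1.91% and 3.04% higher. Jun fell to 0.232 and 0.0663 times. Fos was at 20.6 CPM in the septal cells (0.442 times) but at 27.9 CPM in the vesicle ones (2.20, 1.73–2.75), and without globin in the totals the values were 43.0 and 61.7 CPM. Nr4a1 had no UMI in the vesicle erythroid-like cells, at least 3.05-fold lower than in progenitors.

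Within the progenitors, BPs held less Jun and Atf3 than APs, and more Junb. Jun stood at 45.8 against 159 CPM in the septal library (0.288, 0.253–0.325) and 64.9 against 159 CPM in the vesicle (0.410, 0.367–0.457). Junb stood at 8.68 against 4.20 CPM (2.07, 1.49–2.82) and 8.17 against 2.52 CPM (3.24, 2.28–4.48). Atf3 had 2 UMIs in septal BPs (0.347 against 4.51 CPM, 0.0770, 0.00927–0.281) and none in vesicle BPs, at least 3.5-fold lower than in APs. Fos was lower in septal BPs (21.7 against 49.4 CPM, 0.439, 0.364–0.526) and near the AP level in vesicle ones (15.4 against 12.6 CPM, 1.22, 0.960–1.53). Called higher was 1 member in either library, where 6.92% and 6.42% of genes were, and called lower were 4 septal members and 3 vesicle members, where 12.4% and 11.2% of genes were. The vesicle's 3 included Nr4a1, at 0.389 against 3.35 CPM (0.116, 0.0140–0.422).

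Along an axis from progenitor to neuron, built from marker genes and cut into 10 bins of 483 septal or about 840 vesicle cells, the members changed at different places. Jun in the septal library was at 189 CPM in the first bin, 140.2 CPM in the seventh and 35.2 CPM in the eighth, the bin where BP markers peaked, and came back to 70.9 CPM in the last. In the vesicle it went from 197 CPM down to 58.8 CPM in the ninth bin and back to 123 CPM in the last. Junb began its rise in the eighth bin of either library (24.4 and 7.79 CPM) and reached 47.9 and 76.6 CPM. Egr1 followed in the ninth (32.7 and 51.1 CPM) and ended at 51.2 and 123 CPM. Fos was high at both ends. It went from 68.1 CPM to 26.4 CPM in the eighth bin and 62.3 CPM in the last in the septal library, and from 20.8 CPM to 9.46 CPM in the sixth and 58.4 CPM in the last in the vesicle. Atf3 ran from 5.89 to 0.182 CPM by the eighth septal bin and had no UMI in the last 2 bins of the vesicle. Ier2 stayed between 183 and 224 CPM in the septal library. The order of bins describes cells of different types in 1 suspension and not a time course.

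**Figure D3:**
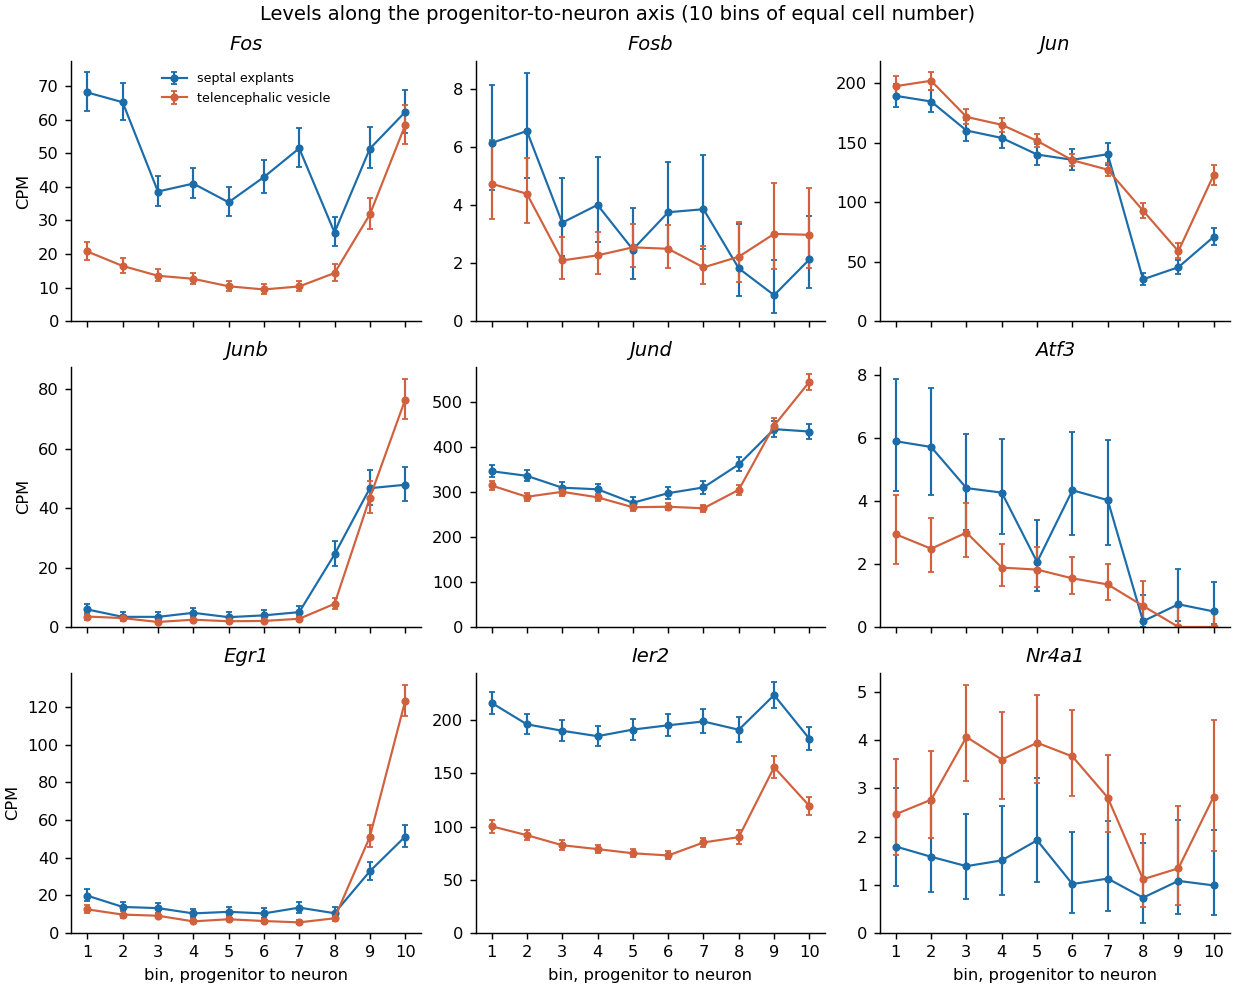
CPM of each of the 9 genes (1 panel each) over 10 bins of equal cell number ordered from progenitor to neuron by marker genes, in the septal library (blue) and the vesicle (orange), with 95% counting intervals. Atf3 declines along the axis, Jun declines and then rises again toward the last bin, Junb and Egr1 are highest in the last bin of either library, and Fos is lowest in the eighth septal and the sixth vesicle bin.

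Subtypes of neurons were compared with the other neurons of their library, and 6 of the 9 members had enough UMIs to be tested in each of these comparisons. In the vesicle, Cajal-Retzius-like neurons, the early-born cells of the cortical surface, held less Fos (17.2 CPM, 0.328 times the other neurons, 0.204–0.502) and less Egr1 (33.7 CPM, 0.337 times, 0.243–0.457), where 7.20% of genes were called lower and 7.27% higher. In the septal library no tested member was called in them, where 6.11% of genes were higher and 3.70% lower, with Junb at 84.2 CPM (1.89 times). No tested member was called in glutamatergic-like neurons (2.68% of genes higher and 6.26% lower in the septal library, 2.27% and 5.74% in the vesicle) or GABAergic-like neurons (2.28% and 8.21%, then 3.28% and 6.15%). Fosb, Atf3 and Nr4a1 were below the count limit, and Fosb had 1 UMI in septal glutamatergic-like neurons and 19 in the other septal neurons.

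APs were then compared by region, each against the other APs of its library. Hem-like APs, which resemble the signalling centre at the medial edge of the cortex, had 4 members called higher in either library. In the septal library their Fos stood at 135 against 45.7 CPM (2.96, 2.61–3.35), Junb at 20.8 CPM (5.98 times), Egr1 at 37.4 CPM (3.08 times) and Atf3 at 10.9 CPM (2.57 times), where 6.69% of genes were called higher and 2.83% lower. In the vesicle their Fos stood at 23.1 CPM (2.13 times), Fosb at 6.18 CPM (2.85 times), Junb at 5.23 CPM (2.51 times) and Egr1 at 13.4 CPM (2.01 times), against 4.47% and 4.50%. No member was called lower in them. Leading genes of the single septal hem-like cluster included Folr1, Rbm47 and Sulf1, which were also leading genes of the vesicle's choroid plexus-like cluster. The septal library had no choroid plexus-like class. Whether its hem-like name also covers such cells was not resolved, so the hem-like APs of the libraries may not be the same cells. Jun in septal-library hem-like APs stood at 154 CPM, against 173 CPM in pallial-like ones. The higher pallial-like level rested on a single cluster described below, and the other pallial-like clusters together lay under the hem-like level. The remaining regions did not keep one order across the libraries. Pallial-like APs of the vesicle had Fos at 2.72 against 16.3 CPM (0.167, 0.133–0.207), Egr1 at 1.38 CPM (0.139 times), Fosb at 0.110 times, Atf3 at 0.264 times and Junb at 0.418 times. These 5 members were called lower, where 7.35% of genes were called lower and 1.33% higher, while Jun was at 0.725 times and Nr4a1 at 0.932 times. Pallial-like APs of the septal library had Fos at 46.8 CPM (0.924 times) and Fosb at 6.75 CPM, the one member called (2.08 times), where 1.73% of genes were called higher and 6.83% lower. Much of the Fos and Fosb of these septal-library cells lay in a single cluster described below. Septal-like APs held Fos at 60.8 CPM in the septal library (1.35 times, no member called, against 5.01% higher and 2.29% lower) and at 6.72 CPM in the vesicle (0.487 times), where Fos and Fosb were called lower against 3.17% of genes, with 4.55% higher. Subpallial-like APs of the vesicle had Fos, Fosb, Egr1 and Atf3 called higher, at 2.03 to 2.42 times (2.96% of genes higher and 4.84% lower). No member was called in septal-library subpallial-like APs, where Fos was at 33.7 CPM (0.620 times) and 1.01% of genes were called higher and 4.49% lower.

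Clusters of 1 named region spread widely. Fos in the septal library's pallial-like AP clusters stood at 9.33, 9.82, 19.8 and 138 CPM, in septal-like clusters between 32.4 and 95.3 CPM and in subpallial-like clusters between 21.4 and 45.6 CPM. In the vesicle it ran from 1.04 to 6.25 CPM in pallial-like clusters, from 9.12 to 29.0 CPM in subpallial-like ones, and stood at 1.61 and 14.0 CPM in septal-like and 19.2 and 26.6 CPM in hem-like ones. In the vesicle the pallial-like clusters all lay below the hem-like and subpallial-like ones, and both septal-like clusters lay below both hem-like ones, while septal-like and subpallial-like clusters overlapped. This order rests on the region names. A vesicle cluster named pallial-like and another named subpallial-like shared the leading genes Gm29260, Kcnip4, Cpa4 and Igsf11. Neither had a listed regional marker among its leading 10 genes. In the septal library the ranges of pallial-like, septal-like and subpallial-like clusters overlapped, and the single hem-like cluster, at 135 CPM, lay above all but 1 of them. The pallial-like range overlapped the others only through the cluster at 138 CPM. The remaining pallial-like clusters, at 9.33 to 19.8 CPM, lay below every septal-like and subpallial-like cluster of that library. The cluster at 138 CPM was set apart here by its Fos level itself, so no likeness to the vesicle is read from this order.

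The septal pool held embryos with different reporters, and the reporter transcripts split its cells. At least 3 YFP UMIs and no tdTomato were found in 2903 kept cells (55.9%) and no YFP UMI in 1588 (30.6%), of which some carried tdTomato. This split and the clusters left out below were chosen after values had been seen, and embryo age, genotype, litter and dissection cannot be told apart by it. The 1017 APs without YFP held Fos at 77.5 CPM against 32.8 CPM in the 1914 APs with YFP (2.37, 2.17–2.58), and Fosb at 8.16 against 2.20 CPM (3.71, 2.74–5.07). These 2 members were called higher and none lower, where 0.394% of genes were called higher and 0.637% lower. Egr1 stood at 17.8 against 10.3 CPM (1.72, 1.46–2.03), Jun at 199 against 136 CPM (1.47 times) and the summed members at 881 against 665 CPM (1.32, 1.30–1.35). APs that carried tdTomato and no YFP, 155 cells, gave Fos at 89.8 CPM (2.74 times the APs with YFP) and Fosb at 12.6 CPM (5.72 times), both called, where 0.714% of genes were higher and 1% lower, and the 862 APs with neither reporter gave 75.2 CPM. In neurons the interval for Fos included 1. Fos stood at 63.8 CPM without YFP and 54.4 CPM with it (1.17, 0.991–1.39), the summed members differed 1.02-fold, and none of the 6 members tested was called, where 0.797% of genes were higher and 0.507% lower.

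The Fos ratio between APs without and with YFP was 1.71 (1.47–1.99) in septal-like APs, with none of 7 members tested called against 0.298% of genes higher and 0.387% lower. It was 1.57 (1.26–1.94) in subpallial-like APs, with none of 5 members tested called against 0.129% and 0.429%. In hem-like APs it was 2.53 (1.91–3.33) over 18 and 108 cells, and Fos was the one member called, against 0.842% and 1.8%. The ratio was widest in pallial-like APs, where 1 cluster carried much of it. Pallial-like APs without YFP (356 cells) had Fos at 98.0 CPM and those with it (520 cells) at 11.6 CPM (8.45, 6.89–10.4), with Fosb at 11.7 times, Egr1 at 4.48 times and Atf3 at 4.41 times, where 0.793% of genes were called higher and 0.502% lower. The pallial-like cluster with the highest Fos held 293 cells, of which 5 (1.71%) passed the YFP rule, while 72.5% to 74.7% of cells did so in the other pallial-like clusters. Against those clusters it had Fos at 138 and 13.8 CPM (9.99, 8.44–11.9), Fosb at 17.3 times, Atf3 at 6.5 times, Egr1 at 5.81 times, Junb at 4.48 times and Jun at 279 and 135 CPM (2.07 times). Called higher were 6 of the 8 members tested, where 1.73% of genes were higher and 1.72% lower, and Jund and Ier2 stood at 1.79 and 1.68 times. Among lists of related genes, 6 of 22 other immediate early genes were called higher in it, led by Klf2 (6.44 times), Klf4 (3.52 times) and Gadd45g (2.64 times), and none lower, while no heat shock gene of 9 was called. Without this cluster and 1 glutamatergic-like cluster that also held hardly any YFP (1 of 100 cells), Fos in APs without YFP stood at 57.5 against 32.5 CPM (1.77, 1.60–1.95) and no member was called, where 0.144% of genes were higher and 0.567% lower. Leaving out the same clusters took Fosb in septal neurons from 0.394 to 0.672 times the progenitors, where it was no longer called, and left Junb (11.8 times), Egr1 (4.05 times), Jun (0.420 times) and Atf3 (0.127 times) called as before, where 16.9% of genes were higher and 16.3% lower. Within pallial-like APs, Fos (25.9 against 10.49 CPM, 2.47, 1.75–3.45) and Egr1 (2.19 times) were still called higher without the cluster, against 0.212% of genes higher and 0.52% lower. The glutamatergic-like cluster itself held Fos at 76.3 CPM against 39.3 CPM in the other glutamatergic-like clusters (1.94, 1.51–2.49), with none of 6 members tested called, where 2.76% of genes were higher and 4.24% lower.

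The neuron to progenitor ratios were recomputed on either side of the reporter split. Junb (11.45 and 11.2 times), Egr1 (4.37 and 2.48 times), Jun (0.447 and 0.353 times) and Atf3 (0.0861 and 0.114 times) kept their direction in cells with and without YFP. Fos did not, with 1.74 times in cells with YFP and 0.873 times in cells without, and Fosb was called lower among cells without YFP (0.180 times) and stood at 0.767 times with it. The background was 16.8% of genes higher and 16.4% lower with YFP, and 15.9% and 15.2% without. No test of the difference was possible with 1 library.

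**Figure D4:**
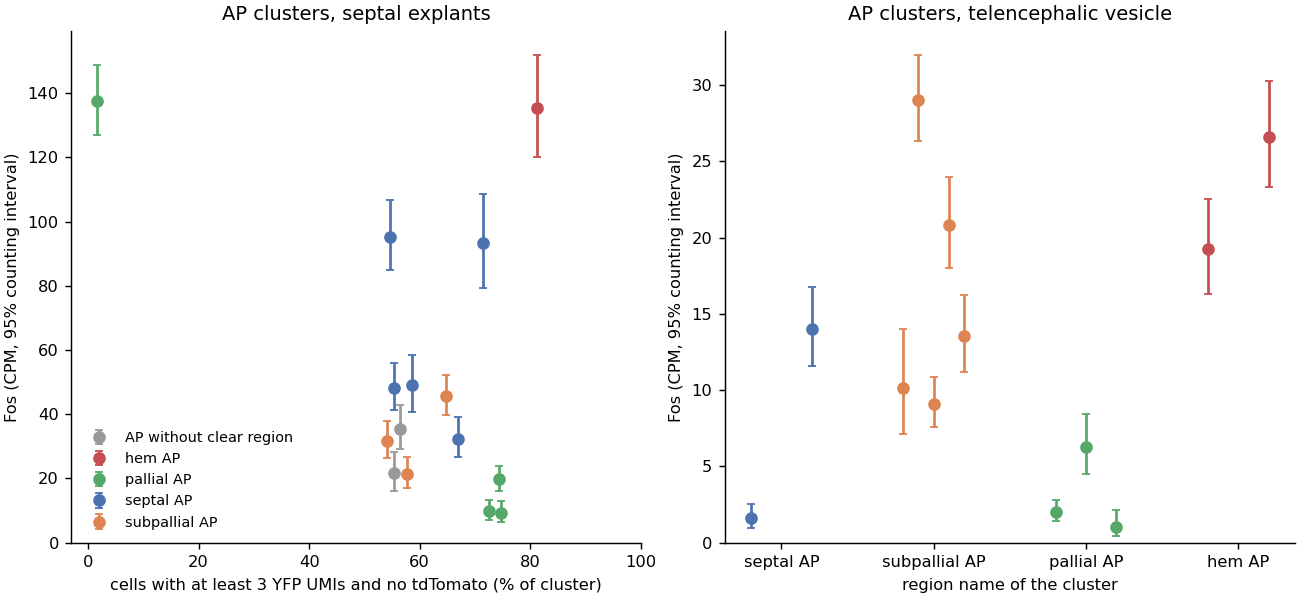
Fos CPM of each AP cluster with its 95% counting interval, on the left for the septal library against the percentage of the cluster's cells with at least 3 YFP UMIs and no tdTomato, on the right for the vesicle by region name. One pallial-like septal cluster with 1.71% of such cells stands at 138 CPM, above the 9.33 to 19.8 CPM of the other pallial-like clusters, and the vesicle's pallial-like clusters lie at 6.25 CPM or below.

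Several members moved with mitochondrial share, heat shock share and depth inside the AP class. The heat shock share sums a fixed list of genes and was not taken as a measure of stress. Septal APs were cut into 5 groups of equal size by the mitochondrial share of UMIs, and Fos stood at 21.5, 31.8, 51.5, 69.0 and 81.0 CPM from the lowest group to the highest, with non-overlapping intervals at the ends (18.9–24.5 and 75.3–87.2). Egr1 went from 7.82 to 22.8 CPM, Junb from 2.21 to 9.46 CPM, Atf3 from 2.67 to 7.12 CPM and Jund from 244 to 365 CPM. In the vesicle the step was small, from 11.6 to 14.9 CPM for Fos. Sorted by the share of heat shock gene UMIs, the order ran the other way in both libraries. Fos stood at 87.8, 62.1, 48.5, 37.0 and 19.1 CPM in the septal library and went from 24.4 to 9.53 CPM in the vesicle. Egr1 went from 22.5 to 6.37 CPM and from 14.5 to 4.89 CPM, and Jund from 385 to 233 CPM and from 326 to 257 CPM. By total UMIs, the deepest group held the least Fos in either library (38.3 and 8.68 CPM, against 65.0 and 16.0 CPM in the shallowest). The part of mitochondrial share, heat shock share and depth in the differences between AP regions and reporter classes was not tested.

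**Figure D5:**
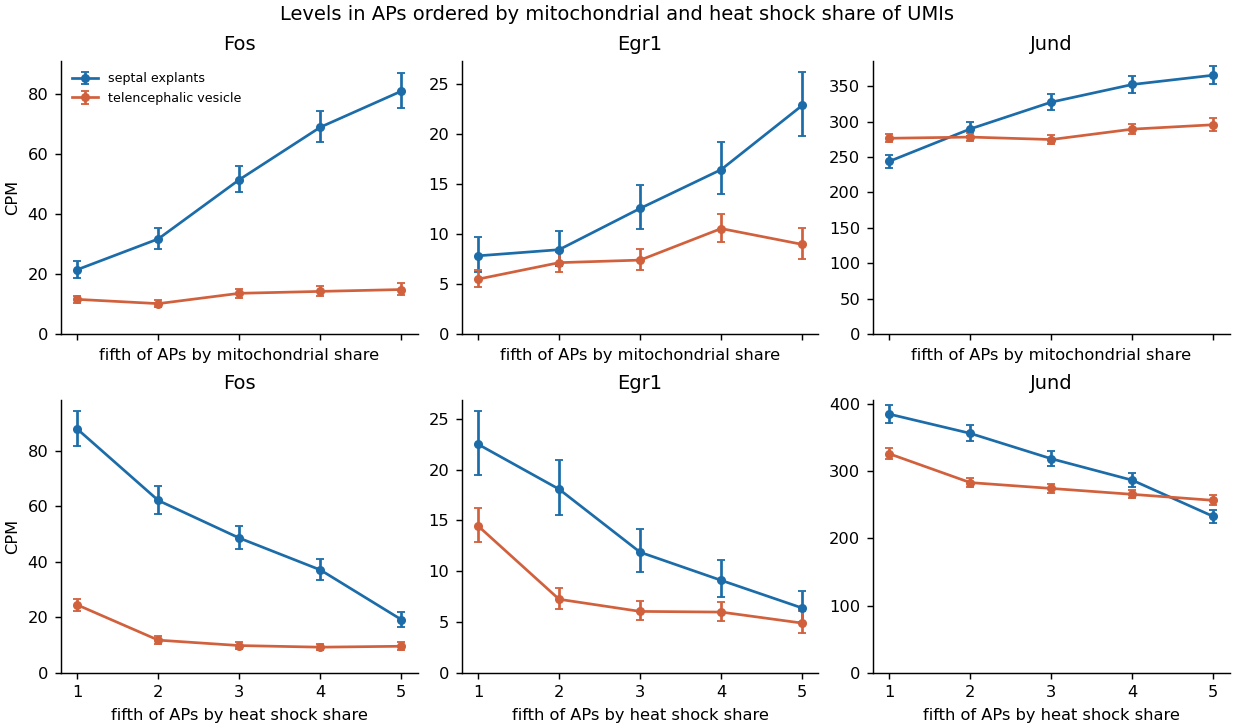
CPM of Fos, Egr1 and Jund with 95% counting intervals in 5 equal groups of APs, ordered from the lowest to the highest share of mitochondrial UMIs (top) or heat shock UMIs (bottom), in the septal library (blue) and the vesicle (orange). Fos in septal APs rises from 21.5 to 81.0 CPM with the mitochondrial share and declines from 87.8 to 19.1 CPM with the heat shock share.

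The spread of UMIs over cells differed between members. The richest 10% of cells held all UMIs of Fosb, Atf3 and Nr4a1, as fewer cells than that had any, 60.8% and 74.3% of those of Fos, and 28.9% and 40.4% of those of Jund in the septal library and the vesicle. The following counts are of the sum, which Jund, Ier2 and Jun dominate. At equal depth a septal progenitor had a median of 5 member UMIs, a neuron 6 and a non-neural cell 3, and 2.51%, 0.423% and 18.0% of them had none. The vesicle medians were 2, 3 and 1, and 17.8%, 6.61% and 29.7% of cells had none. The richest 10% of cells held 23.9% of the member UMIs of septal progenitors, 21.3% of those of neurons and 45.6% of those of non-neural cells, against 28%, 24.2% and 34.3% in the vesicle. At least 5 of the 9 genes were detected together in 5.25% of septal progenitors, 9.63% of neurons and 18.0% of non-neural cells (11 of 61). In the vesicle the shares were 0.255%, 1.90% and 1.34%, so that neurons and not non-neural cells had the largest. In the septal library Atf3 was the most unevenly spread, with a variance 7.04 times its mean over thinned cells, against 2.42 for Fos and 2.06 for Junb. There 1 macrophage-like cell held 46 of its 298 UMIs. This rank did not hold in the vesicle, where Egr1 had the highest value (1.44) and Atf3 stood at 1.34.

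Over all APs of a library, UMIs of Fos were found together with those of several other members. These shares pool clusters and reporter classes that differed in several members at once. The part of such differences in the shares was not tested, so no link within cells is read from them. In thinned septal APs, Egr1 was detected in 18.1% (15.5–21.0) of the 772 cells with a Fos UMI and 6.20% (5.26–7.26) of the 2353 without, Fosb in 7.77% and 1.44%, Atf3 in 7.38% and 2.08%, and Junb in 6.09% and 2.63%. Nr4a1 was detected in 1.04% and 0.977%. In vesicle APs, Egr1 was detected in 6.78% (4.19–10.3) of 295 cells with a Fos UMI and 3.21% (2.78–3.70) of 5817 without, and Fosb in 4.07% and 0.946%. The intervals overlapped in the vesicle for Junb (2.37%, 0.959–4.83, against 0.911%, 0.683–1.19), Atf3 (1.36%, 0.371–3.44, against 0.670%, 0.477–0.915) and Nr4a1 (0.678% and 0.791%). Over 3125 thinned septal APs the correlation was 0.241 for Jun with Jund, 0.240 for Fos with Jund, 0.231 for Fos with Fosb and 0.225 for Fos with Egr1, and over 6112 vesicle APs no pair exceeded 0.103. These cells share a library and a suspension, and in sparse counts such weak correlations are no finding.

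Genes whose level most resembled that of the summed members were ranked by correlation of log values. Over 26 septal clusters and 8894 genes they were Klf11 (0.892), Gna13 (0.876), Atn1 (0.876), Mvp (0.871) and Specc1l (0.858), and over 26 vesicle clusters and 11821 genes Rhob (0.921), Zgpat (0.913), Slu7 (0.895), Cnrip1 (0.890) and Arl8a (0.885). Over single septal APs (3311 cells) the list held H3f3b (0.310), mt-Co3 (0.287), Dusp1 (0.281), Top2a (0.269) and Nfib (0.268), and over single vesicle APs (6219 cells) Hist1h1b (0.369), Hist1h2ap (0.337), Vcl (0.329), Hist1h2ae (0.316) and Dusp16 (0.290). The clusters and cells of a library share its depth and free RNA.

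Related genes were counted from lists, beside the same background shares as the members. Of other immediate early genes, neurons had 10 of 29 called higher and 4 lower in the septal library, with a median ratio of 1.62, and 11 of 31 higher and 4 lower in the vesicle, with a median of 1.48. Septal neurons held more Myc (8.12 times), a growth regulator, Plk2 (6.47 times), a polo-like kinase, and Sik1 (3.14 times), a kinase, and less Cyr61 (0.0512 times), a secreted matrix protein, Klf4 (0.195 times) and Bhlhe40 (0.218 times), both transcription factors. Vesicle neurons held more Egr3 (19.6 times), Plk2 (17.9 times) and Sgk1 (6.39 times) and less Ccn1 (0.0792 times), the newer symbol of Cyr61, Bhlhe40 (0.0990 times) and Ccn2 (0.131 times). Of genes that damp the response, 3 of 14 were higher and 5 lower in septal neurons and 4 and 5 in vesicle ones. The phosphatase genes Dusp4 (7.97 and 10.1 times) and Dusp1 (2.46 and 3.83 times) were higher, and Zfp36l1 (0.0491 and 0.0654 times), whose protein destabilises AU-rich mRNAs, was lower. Of 16 upstream kinases and factors, 4 were higher in septal neurons and 1 in vesicle ones, with Mapk10, the neuronal JNK, at 7.1 and 7.51 times, and none was lower. Of heat shock genes, 3 of 11 were lower in septal neurons (Hspb1 at 0.299, Hspe1 at 0.394 and Hspd1 at 0.474 times) and 3 of 12 in vesicle ones, and none was higher. Of other AP-1 family genes, 1 of 10 was higher and 2 lower in septal neurons and 1 of 13 higher and 2 lower in vesicle ones. The lower ones were Batf3 at 0.0918 and 0.0580 times and Atf1 at 0.346 and 0.474 times.

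In non-neural cells, 8 of 29 other immediate early genes were higher and 11 lower in the septal library and 10 of 31 higher and 5 lower in the vesicle. Klf2, a flow-responsive transcription factor of endothelium, was at 4.35 and 35.5 times the progenitors. Of the damping genes, 5 of 14 were higher and 5 lower in septal cells and 6 of 15 higher and 3 lower in vesicle ones, led by Zfp36 (16.1 times) and by Dusp2 (18.6 times). Of heat shock genes, 4 of 11 were lower and none higher in septal non-neural cells, and 2 of 12 higher (Hspb1 at 6.04 and Hspa1b at 2.21 times) and none lower in vesicle ones. In BPs, Gadd45g (18.2 and 19.4 times the APs), Plk3 (31.1 and 11.3 times) and Btg2 (5.26 and 5.73 times) led the other immediate early genes called higher. Those counts were 4 of 29 higher and 7 lower in the septal library and 6 of 31 higher and 7 lower in the vesicle. In hem-like APs, 8 of 29 and 7 of 31 were higher and none lower, with Sgk1 at 22.4 and 7.80 times. In vesicle pallial-like APs, 1 of 31 was higher and 10 lower, as were 6 of the 14 damping genes, among them Spry4 (0.130 times), an inhibitor of receptor tyrosine kinase signalling. No gene of these lists was called between all septal APs without and with YFP. Within regions some were, among them 5 of 22 other immediate early genes higher in pallial-like APs without YFP and 2 of 23 higher and 1 lower in septal-like ones.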

How the data were processed

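The authors deposited 1 filtered matrix of raw UMI counts per library, whole numbers per gene and barcode with no normalization. The submitters' processing notes name Cell Ranger 2.1.1 for the septal library and 7.1.0 for the vesicle, with mm10 as the genome, and the study's methods add the YFP and tdTomato sequences to the septal reference. Whether intronic reads were counted is not given in the sources used here, and it would shift levels between the libraries. The kits were versions 2 and 3.1 of a 3′ chemistry. The septal matrix held 83103280 UMIs in 5827 barcodes, against about 10000 cells loaded, and the vesicle matrix 194821794 UMIs in 14283 barcodes, against about 20000.

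From the deposited counts, barcodes more than 3 median absolute deviations from the median mitochondrial share were removed (383 and 1812), then doublets called with the Scrublet method at 0.8% per 1000 barcodes (248 and 1300). Cells were clustered per library on 2000 variable genes, 30 principal components and 15 neighbours (Leiden resolution 1.5), with the 9 genes, heat shock genes and cell cycle genes left out. A cluster took a name from at least 3 markers found in 5% of its cells and 1.5-fold enriched. For APs the markers had only to reach the mean of the other clusters (1-fold), with a mean standardised level over clusters of at least 0.3. Regional markers counted toward APs among a cluster's leading 10 genes. Cajal-Retzius-like clusters had to exceed the standardised level of the shared neuronal markers by 0.5. That naming rule was revised once after the clusters were seen. The members and lists were chosen with earlier results of these data known.

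Counts were summed per class and given as CPM with exact Poisson intervals. Shares of cells have exact Clopper-Pearson intervals, and ratios have exact intervals from the binomial split, all at 95%. With 1 library per group no test was made. The floor was 3 UMIs over a class. Of each related list, the counts called were given, with names taken from the 3 largest ratios in each direction among genes with at least 50 UMIs. Most similar genes were the 5 with the highest correlation of log2(CPM + 1) over clusters of at least 50 cells, or the leading 10 over APs, of which 5 are named. On simulated counts with 200 changed genes, the interval covered the true ratio in 95.5% of 12784 septal and 95.2% of 15778 vesicle genes, and 100% and 91.2% of 2.5-fold changes were called. The simulated counts followed the Poisson model that the intervals assume, with no extra spread between cells. Coverage near 95% follows from that, so it checks the calculation and not the intervals on these data. Clustering used scanpy 1.11.5 with igraph 0.11.9 and scikit-learn 1.9.0, intervals scipy 1.17.1, tables pandas 2.3.3 and numpy 2.4.6, and plots matplotlib 3.10.9, under Python 3.11.15. Alternatives varied the cell filters, doublets, clustering, naming, depth and the fold limit.

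One gene of the related lists is not reported here.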

Additional observations from a re-analysis of the deposited data

Results flagged for a closer look

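Several members moved in opposite directions in the 2 libraries under comparisons of the same name, and none of these differences between libraries was tested. Regions of one name do not hold the same clusters in both, since a cluster led by Nkx2-1, Shh and Tal2 was named septal-like in the septal library and one with these genes subpallial-like in the vesicle. Fos in erythroid-like cells was 0.442 times the progenitor level in the septal library and 2.20 times in the vesicle. In subpallial-like APs against the other APs, Fos stood at 0.620 and 2.03 times, Fosb at 0.598 and 2.11 times and Egr1 at 0.557 and 2.17 times. Egr1 in septal-like APs stood at 1.52 and 0.511 times, and Fosb in pallial-like APs at 2.08 and 0.110 times. Much of the septal library's pallial-like Fosb lay in the pallial-like cluster with hardly any YFP, where Fos and Egr1 were high too. That cluster was also among the other APs of the septal comparisons above. The region ratios were not computed without it.

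Barcodes that the mitochondrial limit removed entered no comparison. The 205 septal barcodes above that limit held Fos at 73.0 CPM (61.0–86.8), Junb at 35.7 CPM (27.4–45.6), Egr1 at 27.7 CPM (20.5–36.7) and Atf3 at 12.46 CPM (7.81–18.9), against 48.5, 13.9, 18.6 and 4.06 CPM in the kept cells. Their median depth was 7325 UMIs, and which classes they belong to was not assigned. Fos was not raised in the 1812 vesicle barcodes above the limit of that library. They held Fos at 15.6 CPM (11.7–20.3), Junb at 11.1, Egr1 at 11.9 and Atf3 at 3.97 CPM. Kept vesicle cells held 18.4, 10.1, 16.8 and 2.33 CPM, and the summed members stood at 435 against 590 CPM. The 178 septal barcodes below the limit held Fos at 18.1 CPM and summed members at 197 CPM, against 747 CPM in kept cells.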

How the results depend on the processing

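No paired analysis was possible because each tissue had 1 library. The summed members over progenitors were 1.18 (neurons) and 1.0 (non-neural) in the septal library and 1.71 and 1.15 in the vesicle. Septal neurons gave 1.14 when clustered with the genes left out above and 1.11 under the first naming rule. Septal non-neural cells gave 0.639 over all barcodes, 1.14 as a mean of single-cell CPM, 1.12 thinned, 0.886 without the highest 1% of cells, 1.36 without globin and 1.74 without erythroid-like cells. Vesicle neurons gave 1.55 with doublets, 1.54 over all barcodes, 1.65 at Leiden resolution 2.5, 1.58 as a mean of single-cell CPM, 1.61 thinned and 1.26 under the first naming rule. Vesicle non-neural cells gave 1.11 over all barcodes, 1.18 with at least 1000 genes per cell, 1.12 without the highest 1% of cells, 1.06 under the first naming rule, 1.33 without globin and 1.44 without erythroid-like cells. They fell below the progenitors, to 0.879 as a mean of single-cell CPM and 0.880 thinned, as did Fosb there when thinned (0.614, against 2.04). In these last 2 settings each cell weighs alike. A limit of 1.5-fold raised the called members from 4 to 7 in septal non-neural cells and from 4 to 7 in vesicle neurons. The share of all genes called at 1.5-fold is not given here, so these counts are no result about the members. The first naming rule, the globin, erythroid, reporter and single-cell settings were chosen after seeing the data. Depth limits Nr4a1, Fosb and Atf3 most, and the smallest classes hold 10 to 27 cells.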
